A study of Mus musculus with 6 samples.

Results

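The translation initiation and elongation factors were taken as every protein-coding row of the deposited table whose gene symbol began with Eif or Eef followed by a digit. This gave 81 of the 41079 listed genes, or of the 22255 protein-coding ones. Their transcripts were compared between T cells kept for 24 h at 26°C and T cells kept for 24 h at 37°C. Of the 81 members, 64 had a mean TPM (a transcript level corrected for gene length and library total) of at least 1 and were tested. The other 17 were below that level, and 12 of these were listed at 0 in all 6 libraries.

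In cap-dependent initiation, eIF4F binds the mRNA cap while the small ribosomal subunit, carrying eIF1, eIF1A, eIF3, eIF5 and the eIF2 complex with initiator tRNA, scans for the start codon. eIF2B recharges eIF2 with GTP, and phosphorylation of eIF2α by one of a family of kinases slows this step. The 4E-binding proteins hold eIF4E away from the scaffold eIF4G. In elongation, eEF1A brings the charged tRNA, the eEF1B subunits recharge eEF1A, eEF2 moves the ribosome along, and eEF2 kinase slows eEF2. T cells are known for raising protein synthesis strongly when they are activated.

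The cells were D10, a CD4+ helper T cell line that is a single clone derived from mouse lymph node, so the replicates did not differ in genotype. Cold-acclimated cells (26°C, 3 replicates) and non-acclimated cells (37°C, 3 replicates) shared the medium and the duration. Per the paper's methods the medium for D10 contained IL-2, and no added agent set the 2 conditions apart. The replicates were prepared independently, from RNA batches called old and new that the labels do not tie to a library. A bulk sample cannot tell fewer cells with a transcript from less of it per cell. All 7 T cell markers had a mean TPM of at least 1 (summed 1876 to 3655 at 37°C and 2326 to 3318 at 26°C), including Cd3e and Cd4. The 6 B cell markers summed to at most 1.11 with Ms4a1 at 0. The 6 macrophage markers summed to between 2.46 and 21.2. Of these, 2 (Lyz2 and Cd68) had a mean TPM of at least 1, and Cd14 was at 0. The erythroid markers summed to between 61.4 and 486, nearly all from Hba-a1, with Hbb-bs at 0; their part in the results was not tested.

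The reads behind the TPM were recovered from the steps of the values and numbered 16899606 to 31290821 per library. The lowest numbers among the tested members were 15 reads for Eef1akmt3 in non-acclimated replicate 1 and 18 for Eif4ebp3 in cold-acclimated replicate 1. Over the 12227 tested genes the median log2 fold change was -0.34. It was 0.02 when libraries were put on a common scale by median of ratios. The study's own test used that method within DESeq2 on read counts, whereas here it was applied to the TPM of the tested genes. Group medians are therefore also given as the distance above or below that of all genes.

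In cold-acclimated T cells Eif1a, Eif3j1 and Eif3j2 were upregulated, and Eif2ak1, Eif4ebp3, Eef2k, Eef2kmt, Eef1akmt1 and Eef1akmt4 were downregulated, by limma's moderated test on log2(TPM + 1). A call needed a log2 fold change of 1 or more in either direction and an adjusted p (Benjamini-Hochberg) under 0.05. The 3 upregulated members were 4.69% of the tested members, beside 2.63% of all tested genes. They became 2 when Eif3j1 and Eif3j2, which share much of their sequence, were summed. The 6 downregulated members were 9.38%, beside 16.0% of all tested genes. With the adjusted p alone, 3 members were higher (3.30% of all genes) and 7 lower (17.4% of all genes), the seventh being Eif4ebp2.

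**Figure D1:**
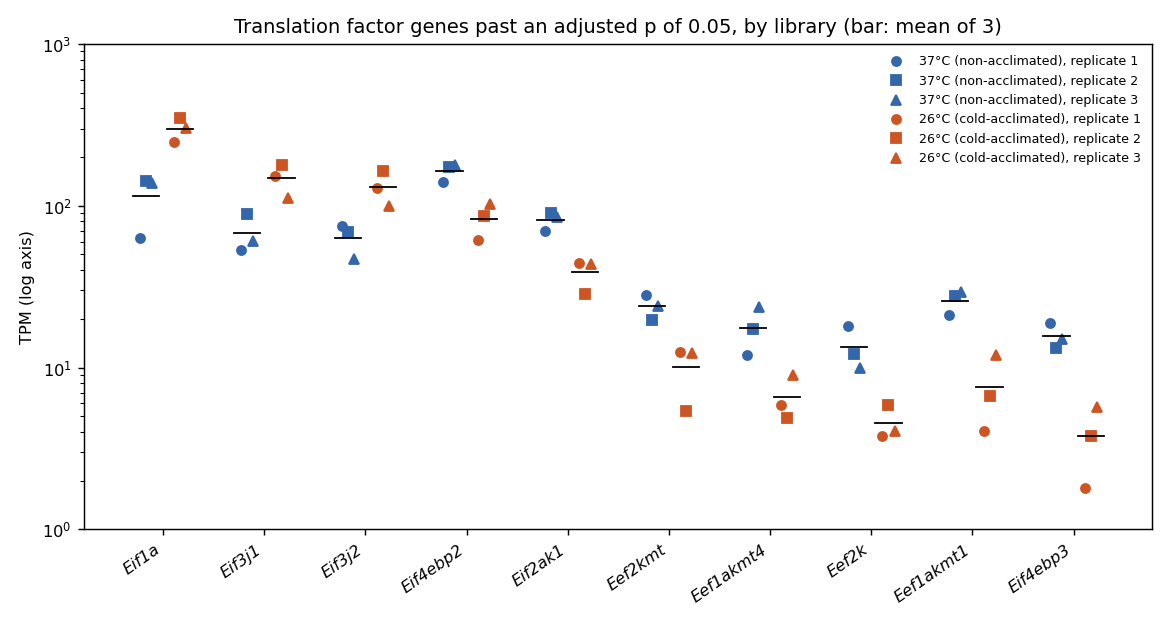
TPM on a log axis in each of the 6 libraries for the 10 members with an adjusted p under 0.05, with 37°C in blue, 26°C in orange, a symbol per replicate and a bar for the mean of 3. Eif1a, Eif3j1 and Eif3j2 lie higher at 26°C, the other 7 lie lower, and the 2 conditions do not overlap for any of the 10. The 10 were chosen by a test on these same values, so the gap is no separate support.

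The median log2 fold change of the members was 0.07, which is 0.40 above the median of all tested genes, or 0.10 above it without the filter on low values. The difference was 0.61, 0.38 and 0.28 within replicate pairs 1, 2 and 3, and smallest in pair 3. The members above 0 numbered 37 and those below 0 numbered 27, while 49 of the 64 (76.6%) lay above the median of all genes and 15 below it. The members were also more abundant, with a median mean TPM of 129 against 20.7 for all tested genes. Whether the distance from all genes goes with abundance was not tested. Members higher in every 26°C library than in every 37°C library numbered 10 (15.6%, against 9.69% of all genes), and 10 were lower in every one (15.6%, against 31.4%). Within the 3 replicate pairs, 24 members were higher each time (37.5%, against 18.2% of all genes) and 20 were lower each time (31.2%, against 47.9%). Summed over the 81 members, the transcripts took 3.88%, 3.72% and 3.79% of all TPM at 37°C and 4.09%, 4.35% and 4.02% at 26°C.

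The calls depended on the scaling, the filter and single libraries. With replicate pairs as a block, the same 3 members were upregulated (3.75% of all genes) and 7 downregulated (21.9% of all genes), Eif2ak2 being added. At the adjusted p alone the block gave 10 higher (6.89% of all genes) and 9 lower (29.0% of all genes). After median of ratios scaling, 10 members were upregulated (6.56% of all genes) and 2 downregulated (8.79% of all genes), or 12 (8.33% of all genes) and 2 (9.59% of all genes) with the adjusted p alone. Without the filter on low values, 8 of the 10 members of the first list lost an adjusted p under 0.05 (0.052 to 0.090), and only Eif2ak1 and Eif4ebp3 kept it. None of the 10 kept an adjusted p under 0.05 when non-acclimated replicate 1 or 2 or cold-acclimated replicate 1 or 2 was left out, where their adjusted p ran from 0.053 to 0.14. Without non-acclimated replicate 3, Eef1akmt1, Eef2k, Eif1a and Eif4ebp3 kept it, and without cold-acclimated replicate 3 all 10 did. All 10 kept their direction in each of these 6 fits. This had to follow, because none of the 10 overlapped between the conditions, so it is no sign of stability.

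**Figure D2:**
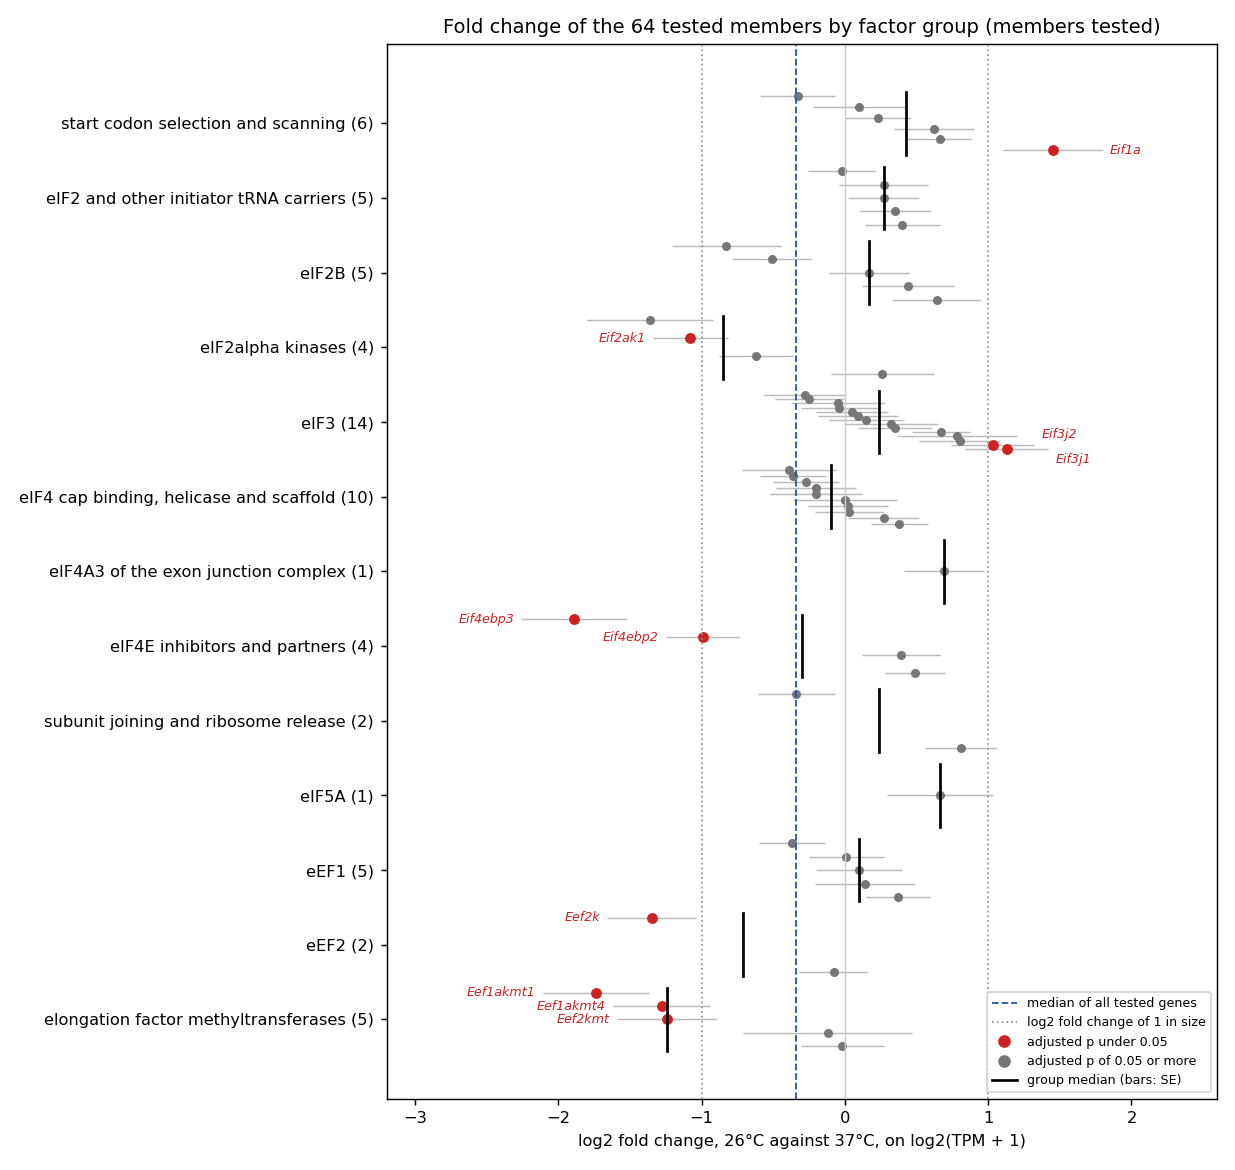
Log2 fold change of the 64 tested members (points, with standard errors) by factor group, with the number tested in brackets, a black bar for the group median, a dashed line for the median of all tested genes (-0.34) and dotted lines at a size of 1. Points with an adjusted p under 0.05 are red, and they lie at the right end of the scanning and eIF3 groups. At the left end they lie in the groups of eIF4E inhibitors and methyltransferases and of eEF2. In the group of kinases Eif2ak1 is red, and Eif2ak2, further to the left, is not.

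The scanning factors had a median log2 fold change of 0.43, which is 0.76 above all genes, and 5 of the 6 tested were above 0. Eif1a, which encodes eIF1A, a factor that keeps the scanning ribosome open and helps to place it on the start codon, had a TPM of 63.5, 143 and 138 at 37°C and of 247, 348 and 303 at 26°C. Every 26°C library was above every 37°C library, and non-acclimated replicate 1 was the lowest. The log2 fold change was 1.45 (SE 0.35, n = 3 per condition, limma adjusted p = 0.028), the largest rise among the members, and 1.94, 1.27 and 1.13 within the pairs. Adjusted p was 0.0075 with the block, 0.016 after median of ratios and 0.064 without the filter on low values. The gene (ENSMUSG00000057561) lies on chromosome 18, and none of its windows of 100 bases occurred in another annotated transcript.

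Its X-linked counterpart Eif1ax had 153, 174 and 195 at 37°C and 229, 170.2 and 217 at 26°C, with a log2 fold change of 0.23 (SE 0.23, limma adjusted p = 0.49), so that the conditions overlapped. Eif1, whose product guards the choice of start codon, had a TPM of 580.2, 568 and 789 at 37°C and of 1006, 1028 and 984 at 26°C. The conditions did not overlap, yet the log2 fold change of 0.66 (SE 0.23) had a limma adjusted p of 0.078, with 0.039 under the block and 0.027 after median of ratios. Its paralog Eif1b was lower in each pair, with 88.4, 82.4 and 136 at 37°C and 80.0, 69.1 and 88.7 at 26°C, overlap between the conditions and a limma adjusted p of 0.40. Eif5, which triggers GTP hydrolysis by eIF2 at the start codon, went from 120.2, 159 and 177 to 173, 232 and 305 (log2 fold change 0.62, SE 0.28, limma adjusted p = 0.16, with 0.041 under the block).

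The eIF2 subunits and other carriers of initiator tRNA had no member past the threshold, and their median log2 fold change was 0.27 (0.61 above all genes). Eif2s1 encodes eIF2α, the subunit that is phosphorylated when initiation is turned down. It had a TPM of 104, 145 and 188 at 37°C and of 140.3, 149.9 and 237 at 26°C, a log2 fold change of 0.27 (SE 0.31, limma adjusted p = 0.57). Eif2s2, for the β subunit, was the most abundant, with 346, 317 and 229 at 37°C and 351, 341 and 479 at 26°C (0.40, SE 0.26, limma adjusted p = 0.31). Eif2s3x, for the γ subunit, had 130.2, 183 and 159.8 at 37°C and 164, 169 and 241 at 26°C, and Eif2s3y was listed at 0.

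The 5 eIF2B subunit genes were split. Eif2b1, Eif2b2 and Eif2b3 lay above 0 (0.44, 0.64 and 0.17 on the log2 scale), and Eif2b4 and Eif2b5 lay below it (-0.51 and -0.83). Eif2b2, for the β subunit, had a TPM of 50.3, 72.6 and 94.8 at 37°C and of 96.8, 91.7 and 149.5 at 26°C. Each pair was higher at 26°C, by 0.93, 0.33 and 0.65, but the conditions overlapped and the limma adjusted p was 0.18, or 0.042 after median of ratios. Eif2b5, for the catalytic ε subunit, had 64.2, 86.3 and 113 at 37°C and 35.9, 36.5 and 82.9 at 26°C. Its limma adjusted p was 0.16 without and 0.030 with the block, and 0.39 after median of ratios.

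Of the 4 eIF2α kinases, 3 were lower in every 26°C library (31.4% of all genes were), and 1 was downregulated (16.0% of all genes were), or 0 after median of ratios. Eif2ak1 (HRI, the haem-regulated kinase) had a TPM of 70.2, 90.7 and 85.1 at 37°C and of 44.4, 28.4 and 43.9 at 26°C. It fell by 1.08 on the log2 scale (SE 0.26, limma adjusted p = 0.028), with 0.082 after median of ratios, and in each pair (-0.65, -1.64 and -0.94). Eif2ak2 (PKR, the kinase that senses double-stranded RNA) had 79.4, 136 and 36.8 at 37°C and 25.5, 32.2 and 26.6 at 26°C. The 37°C libraries were widely spread, so the log2 fold change of -1.36 (SE 0.44) had a limma adjusted p of 0.065, with 0.020 under the block and 0.15 after median of ratios. Eif2ak3 (PERK, the kinase of the endoplasmic reticulum) had 28.8, 24.1 and 27.6 against 16.8, 13.2 and 22.6 (limma adjusted p = 0.13). Eif2ak4 (GCN2, which senses uncharged tRNA) had 16.9, 16.5 and 9.22 against 19.8, 21.4 and 10.9, higher in each pair but overlapping (log2 fold change 0.26, limma adjusted p = 0.63). Summed, the 4 kinases had a TPM of 195, 267 and 159 at 37°C and of 107, 95.2 and 104 at 26°C.

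eIF3, the largest initiation factor, is a scaffold that joins the small subunit to the mRNA and to the other factors, and eIF3j is its loosely bound subunit near the decoding site. The 14 eIF3 genes had a median log2 fold change of 0.23, which is 0.57 above all genes, with 10 above 0. The only eIF3 genes past the threshold were the 2 copies for eIF3j. Eif3j1 had a TPM of 53.5, 88.6 and 60.3 at 37°C and of 153, 179.7 and 112 at 26°C (log2 fold change 1.13, SE 0.29, limma adjusted p = 0.032). Eif3j2 had 75.0, 68.6 and 46.9 at 37°C and 128, 164 and 99.3 at 26°C (1.03, SE 0.29, limma adjusted p = 0.042). For both, every 26°C library was above every 37°C library.

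Of the windows of 100 bases in the Eif3j2 transcript (2379 bases), 84.0% also occur in Eif3j1. Of those of the longer Eif3j1 transcript (5427 bases), 35.9% occur in Eif3j2. Reads from the shared windows cannot be assigned to either copy, so the counts of the 2 copies cannot be fully told apart. The windows come from the longest annotated transcript, and the gene lengths behind the deposited values are not given. In non-acclimated replicate 1 Eif3j1 had 885 recovered reads at a TPM of 53.5, and Eif3j2 had 1244 at 75.0. These are much the same reads per TPM, so the length counted for Eif3j1 was near that of Eif3j2. The 35.9% may therefore understate the shared part of what was counted for Eif3j1. The sum of the 2 copies, an alternative chosen after the data were seen, had a log2 fold change of 1.08 (SE 0.27, limma adjusted p = 0.030), with an adjusted p of 0.0086 under the block and 0.020 after median of ratios. Set against the median TPM of the other 12 subunits, the sum was 0.378, 0.419 and 0.227 at 37°C and 0.674, 0.845 and 0.462 at 26°C, without overlap. This ratio does not depend on how the libraries were scaled.

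The other subunits varied. Eif3h, a subunit of the outer octamer and the most abundant by mean TPM, had 880.4, 798 and 1160.0 at 37°C and 1164, 998 and 1444 at 26°C (log2 fold change 0.35, limma adjusted p = 0.37), higher in each pair but overlapping. Eif3e had 516, 513 and 521 at 37°C and 763, 851 and 861 at 26°C, without overlap, and its limma adjusted p of 0.052 became 0.026 under the block and 0.018 after median of ratios. Eif3g, an RNA-binding subunit, had 299, 344 and 466 against 815, 617 and 509.7 without overlap (limma adjusted p = 0.076). Eif3b, a scaffold subunit, had 341, 616 and 1068 against 831, 1061 and 1279, with pair differences of 1.28, 0.78 and 0.26 and an adjusted p of 0.22, or 0.042 under the block. Eif3a, for the largest subunit, had 338, 345 and 410.1 against 272, 269.9 and 386, lower in each pair, and Eif3i was lower in each pair too, but neither passed the test (limma adjusted p = 0.49 and 0.52). The values of Eif3e, Eif3g, Eif3b, Eif3a and Eif3i are given because they were seen to stand apart.

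**Figure D3:**
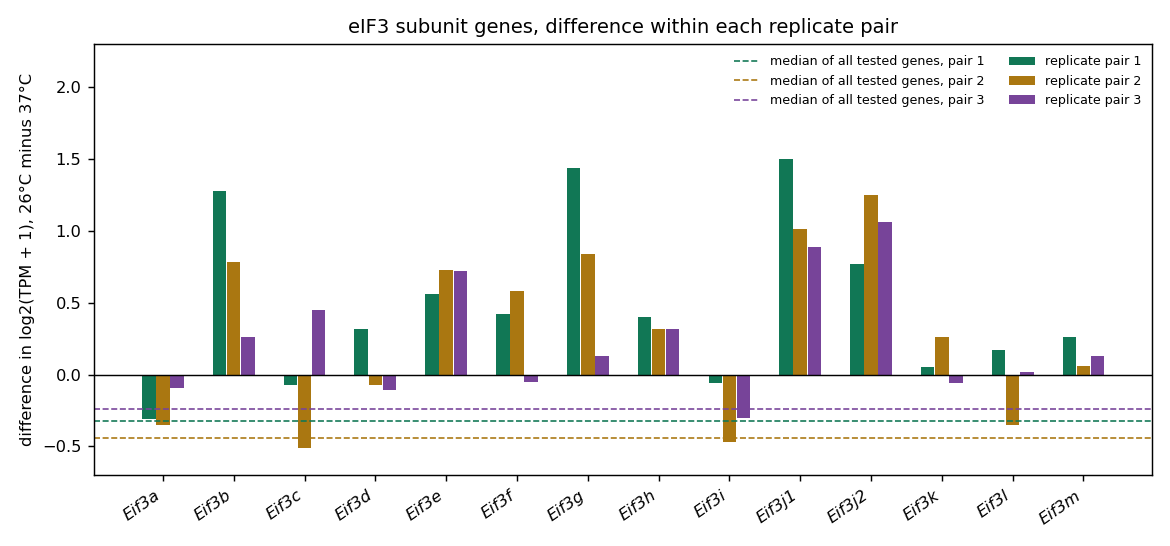
Difference in log2(TPM + 1), 26°C minus 37°C, of the 14 eIF3 genes within replicate pairs 1, 2 and 3 (bars), with a dashed line for the median of all tested genes in each pair (-0.32, -0.44 and -0.24). Eif3j1, Eif3j2 and Eif3e lie above 0.5 in all 3 pairs, Eif3b and Eif3g differ most between the pairs, and Eif3a and Eif3i are below 0 in all 3.

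The genes for cap binding, the eIF4A helicases and the eIF4G scaffolds had no member past the threshold among the 10 tested. Their log2 fold changes ran from -0.39 to 0.38, with a median of -0.10 (0.24 above all genes). Eif4e, for the cap-binding protein itself, had a TPM of 59.8, 55.3 and 62.6 at 37°C and of 74.9, 72.8 and 84.3 at 26°C. The conditions did not overlap, and the log2 fold change of 0.38 (SE 0.20) had a limma adjusted p of 0.22, or 0.035 after median of ratios. Eif4e2, a cap-binding protein with a repressive role, had 29.8, 40.3 and 45.3 against 38.2, 37.1 and 41.3 (limma adjusted p = 0.94). Eif4a1, the main helicase, had 919.9, 1316 and 1677 against 1381, 1201 and 1265 (limma adjusted p = 0.98), with 54.6% of its windows shared with pseudogenes. Eif4a2, the second helicase, had 89.9, 67.7 and 80.3 against 54.6, 57.4 and 73.2 (log2 fold change -0.36, limma adjusted p = 0.30). Eif4g1, the main scaffold, had 221, 367 and 553 against 337, 308 and 437 (limma adjusted p = 0.99), and Eif4g3 had 26.3, 32.6 and 27.7 against 23.6, 27.7 and 20.1 (limma adjusted p = 0.44).

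Eif4a3, which sits in the exon junction complex rather than in eIF4F, had a TPM of 242, 275 and 400.0 at 37°C and of 495, 379 and 597 at 26°C. It was higher in each pair, by 1.03, 0.46 and 0.58, but the conditions overlapped (log2 fold change 0.69, SE 0.28, limma adjusted p = 0.12, with 0.035 under the block and 0.032 after median of ratios).

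The 3 genes for 4E-binding proteins, which compete with eIF4G for eIF4E, differed in direction. Eif4ebp3 had a TPM of 18.9, 13.2 and 15.0 at 37°C and of 1.81, 3.76 and 5.70 at 26°C, on 125 to 208 and 18 to 67 reads. It fell by 1.89 on the log2 scale (SE 0.37, limma adjusted p = 0.016), the largest fall among the members, and it stayed under 0.05 after median of ratios (0.029). Of its windows, 62.1% also occur in the annotated readthrough gene Maskbp3, whose reads cannot be told apart from its own there. Eif4ebp2 had 141, 174 and 178 at 37°C and 61.3, 86.2 and 102 at 26°C, without overlap (-0.99, SE 0.26, limma adjusted p = 0.035, or 0.10 after median of ratios). Eif4ebp1 had 134, 107 and 103 against 209, 122 and 130.4, higher in each pair but overlapping (0.39, SE 0.27, limma adjusted p = 0.35). Eif4enif1, for the transporter of eIF4E into the nucleus, had 66.9, 74.8 and 82.9 against 106, 99.1 and 111, without overlap (0.49, limma adjusted p = 0.12, or 0.025 after median of ratios).

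Among the factors of subunit joining, Eif6, whose product keeps the large subunit apart until it is released, had a TPM of 125, 169.8 and 187 at 37°C and of 335, 235 and 274 at 26°C. The conditions did not overlap (log2 fold change 0.81, SE 0.25), and the limma adjusted p of 0.058 became 0.041 under the block and 0.021 after median of ratios. Eif5b, the GTPase that joins the subunits, was lower in each pair, from 65.6, 83.2 and 113 to 56.3, 66.7 and 79.9 (limma adjusted p = 0.40). Eif5a, the hypusine-bearing factor that helps ribosomes through difficult stretches, had 848, 1274 and 2099 against 1797, 1830.1 and 2699. It was higher in each pair (1.08, 0.52 and 0.36) but overlapped between conditions (0.66, SE 0.37, limma adjusted p = 0.24, or 0.047 under the block).

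The core elongation factors had no member past the threshold. Eef1a1, the tRNA carrier, was the most abundant member, with a TPM of 20382, 16093 and 13825 at 37°C and of 18656, 20257 and 14880.2 at 26°C, and it made up 36.5% to 52.6% of the TPM of all members in a library. Its log2 fold change was 0.10 (SE 0.30, limma adjusted p = 0.84). Eef1b2, for the exchange factor eEF1Bα, was higher in every 26°C library, with 839, 649 and 746 against 969, 1039 and 875 (0.37, SE 0.22, limma adjusted p = 0.26). Eef1g, for the eEF1Bγ subunit of the same complex, was lower in every one, with 2313, 1804 and 2068 against 1627, 1481 and 1673 (-0.37, SE 0.23, limma adjusted p = 0.28), and 49.4% of its windows are shared with pseudogenes. Eef2, the translocase, had 3801, 4644 and 4221 against 3596, 4592 and 3856 (-0.08, SE 0.24, limma adjusted p = 0.86).

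Eef2k and the 5 tested methyltransferases are enzymes that modify the elongation factors. Of these 6 genes, 4 were lower at the adjusted p alone, where 17.4% of all genes were, and 2 did not pass the test. After median of ratios Eef1akmt1 alone kept an adjusted p under 0.05, where 9.59% of all genes were lower. Eef2k, for the kinase that inhibits eEF2, had a TPM of 18.1, 12.1 and 9.89 at 37°C and of 3.78, 5.86 and 4.04 at 26°C, without overlap. It fell by 1.35 on the log2 scale (SE 0.31, limma adjusted p = 0.024), with 0.072 after median of ratios, on 702 to 874 and 230 to 371 reads. Eef2kmt, for the lysine methyltransferase of eEF2, had 28.0, 19.6 and 24.0 at 37°C and 12.4, 5.40 and 12.3 at 26°C (-1.24, SE 0.35, limma adjusted p = 0.045, or 0.12 after median of ratios). The tested group of elongation factor methyltransferases held 5 genes, of which 3 were downregulated, where 16.0% of all genes were, and the median log2 fold change was -1.24 (0.90 below all genes). After median of ratios 1 of them, Eef1akmt1, stayed downregulated.

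The Eef1akmt enzymes methylate lysines of eEF1A. Eef1akmt1 had a TPM of 21.1, 27.6 and 29.2 at 37°C and of 4.08, 6.65 and 12.0 at 26°C. It fell by 1.74 on the log2 scale (SE 0.37, limma adjusted p = 0.020, or 0.035 after median of ratios), and in each pair by over 1 (-2.12, -1.90 and -1.21). Eef1akmt4 had 11.9, 17.2 and 23.6 against 5.87, 4.86 and 9.06 (-1.28, SE 0.34, limma adjusted p = 0.038, or 0.080 after median of ratios). Of its windows, 28.8% also occur in the overlapping readthrough gene Eef1ece2, which was listed at 0. Eef1akmt2 had 21.2, 24.1 and 13.5 against 16.5, 23.3 and 17.4 (-0.02, limma adjusted p = 0.98), and Eef1akmt3 ran from 2.44 to 12.3 over the 6 libraries (limma adjusted p = 0.91).

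A ratio of 2 members within a library does not depend on the scaling of that library. Of 10 pairs of related genes, 7 had both members tested. The ratio of Eif1 to Eif1b was 6.56, 6.89 and 5.82 at 37°C and 12.6, 14.9 and 11.1 at 26°C. The ratio of Eif1a to Eif1ax was 0.416, 0.824 and 0.708 against 1.08, 2.04 and 1.39, so that Eif1a lay below Eif1ax in every 37°C library and above it in every 26°C library. The ratio of Eif4ebp1 to Eif4ebp2 was 0.955, 0.618 and 0.576 against 3.41, 1.41 and 1.27, below 1 in every 37°C library and above 1 in every 26°C library. For these 3 pairs the conditions did not overlap, and the mean log2 ratio was 0.99, 1.21 and 1.38 higher at 26°C with an exact two-sided permutation p of 0.10 each, the smallest that 3 against 3 libraries can give, and 0.23 after adjustment over the 7 pairs. The other 4 ratios (Eif3j1 to Eif3j2, Eif4a1 to Eif4a2, Eif4e to Eif4e2 and Eif4g1 to Eif4g3) overlapped between conditions, with differences of 0.11, 0.37, 0.34 and 0.28 and exact permutation p from 0.30 to 1.0. Because the counts of Eif3j1 and Eif3j2 cannot be fully told apart, their ratio cannot settle whether the 2 copies moved apart.

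**Figure D4:**
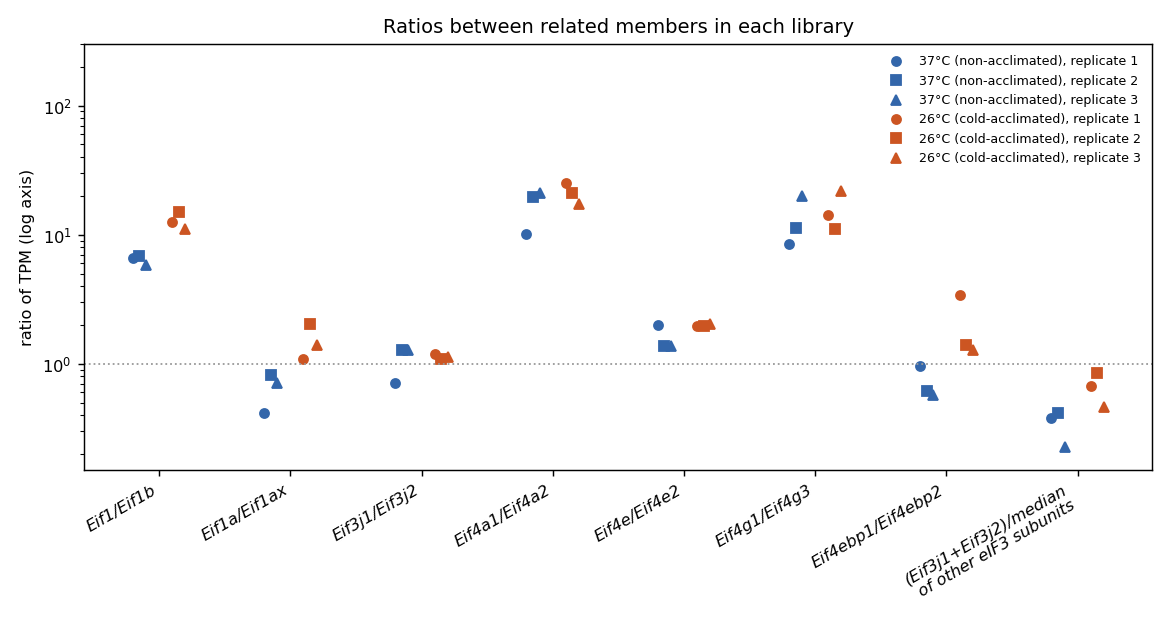
Ratio of the TPM of related members in each library on a log axis, with 37°C in blue, 26°C in orange and a symbol per replicate, for the 7 pairs and for the sum of Eif3j1 and Eif3j2 over the median of the other 12 eIF3 genes. The conditions are apart for Eif1 to Eif1b, Eif1a to Eif1ax, Eif4ebp1 to Eif4ebp2 and the eIF3j ratio, and overlap for the others.

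Genes of translation outside the Eif and Eef names were read from a list of 48, of which 47 were tested. The median log2 fold change was -0.10 (0.23 above all genes), with 3 upregulated (2.63% of all genes were) and 6 downregulated (16.0% of all genes were). After median of ratios they were 6 (6.56% of all genes) and 3 (8.79% of all genes). The 3 upregulated genes were all among the 11 partners of scanning and of the poly(A)-binding protein. Bzw1 and Bzw2 encode eIF5-mimic proteins. Bzw1 had a TPM of 200.3, 311 and 402 at 37°C and of 693, 727 and 636 at 26°C (1.22, SE 0.29, limma adjusted p = 0.027). Bzw2 (1.31, limma adjusted p = 0.042) and Paip2b, an inhibitor of the poly(A)-binding protein (1.06, limma adjusted p = 0.042), also rose. Etf1, the release factor eRF1, rose by 0.94 (limma adjusted p = 0.023), from 195, 241 and 257 to 447, 454 and 427.

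Among the 10 genes for hypusine, diphthamide and selenocysteine, 3 were downregulated (16.0% of all genes were), and 2 after median of ratios, where Dph1 had an adjusted p of 0.066. Dph1 (-1.68, limma adjusted p = 0.037) and Dph6 (-1.57, limma adjusted p = 0.016) act in making diphthamide, the modified histidine of eEF2, while Dph2, Dph3, Dph5 and Dph7 ran from -0.36 to 0.29 and did not pass. Eefsec, the elongation factor for selenocysteine, had 31.1, 37.8 and 28.3 at 37°C and 3.59, 3.11 and 11.4 at 26°C (-2.43, SE 0.44, limma adjusted p = 0.013). Of the 9 mitochondrial factors 3 were downregulated (16.0% of all genes were), with a median 0.59 below all genes. Tufm, the mitochondrial counterpart of eEF1A, had 94.9, 142 and 150.1 against 20.7, 21.4 and 73.2 (-1.95, limma adjusted p = 0.032), and Mtif2 (-1.18, limma adjusted p = 0.042) and Mtrf1 (-1.42, limma adjusted p = 0.023) fell too. After median of ratios Tufm alone stayed downregulated, and Mtif2 and Mtrf1 had an adjusted p of 0.093 and 0.052.

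Promoters were read from RefSeq for the letters CACGTG, the E-box bound by Myc and related factors, which reads the same on both strands. Windows ran from 250 bases before to 50 after the start, in the GRCm38.p6 assembly, and 49 of the 64 tested members had one. The motif stood in 12 of the 49 (24.5%), in 11.5% of the 9120 tested genes with a window and in 8.09% of all 27025 genes. The 12 had a median log2 fold change of -0.04 and the 37 without it 0.10. It was present in 2 of the 5 lower genes with a window, Eef2k and Eef1akmt4, and absent from the one higher gene with a window, Eif3j1. A run of 5 pyrimidines that began with C at the start stood in 2 of the 64 member windows (3.12%) and in 2.51% of all windows. These matches are descriptions of letters and not of binding. The stretches for Eef2k and Eef1akmt4, which fell, and for Eef2 and Eif4e, the targets of eEF2 kinase and of the 4E-binding proteins, are shown with the motif in capitals, on the plus strand of GRCm39. They lie at chr7:120442011-120442040, chr16:20430247-20430276, chr10:81012410-81012439 and chr3:138232789-138232818, in that order. The first 3 lie upstream of the gene start in the deposited table, and the last lies 851 bases downstream of it, ahead of another RefSeq start.
Eef2k: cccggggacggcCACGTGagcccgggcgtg
Eef1akmt4: tgacggaagttcCACGTGtttgtgtggagc
Eef2: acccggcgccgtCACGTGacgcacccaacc
Eif4e: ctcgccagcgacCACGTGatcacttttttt

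The 17 members that were not tested included the tissue-restricted forms Eef1a2, Eif5a2 and Eif4e1b, all listed at 0 in the 6 libraries, as were Eif2s3y, Eef1ece2 and Eif1-ps3. Eif4a3l1 had at most 2 reads in a library. The remaining 10 were copies of the Eif1ad family, of which 4 had any reads, at most 6 in a library. Eif1ad itself was tested, with a TPM of 65.8, 60.8 and 107 at 37°C and of 84.2, 58.6 and 107 at 26°C (limma adjusted p = 0.86). Of the 64 tested members, 16 overlapped another listed gene on the same strand and 18 on the opposite strand, and the strand setting of the counting is not given in the sources used here.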

How the data were processed

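Poly(A)+ RNA of 3 cold-acclimated and 3 non-acclimated D10 replicates was sequenced with a strand-specific kit. Per the labels, the authors used FastQC 0.11.7, Trimmomatic 0.38, HISAT2 2.1.0 and featureCounts 1.6.3 with GRCm39. The deposited values used here are TPM (counts divided by gene length and scaled to the same total in each library). The sources used here do not give the annotation release, gene lengths or strand setting. The members and all lists were chosen with earlier results of these data known. A single one of the erythroid markers is not reported here.

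Reads were recovered from the TPM steps for 21193 of 21195 expressed genes, within 1e-06 reads. limma 3.58.1 (R 4.3.3, mean-variance trend) was fitted on log2(TPM + 1) over the 12227 genes whose mean TPM reached 1, without a replicate term. This scale understates the change of low genes. The thresholds were an adjusted p of 0.05 and a log2 fold change of 1 in size. Other values were computed with Python 3.11.15. The main, block and voom fits were tested on simulated data, and the other fits were not. The simulation raised as many genes as it lowered and had no replicate effect, unlike these data. Genes were named if they passed the adjusted p, led their group in mean TPM or in p in the group's direction, belonged to a related pair or were Eif2s1, Eif4e, Eif4ebp1, Eef2 or Eef2k, and others are named where their values stood apart.

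Deviations from the condition means correlated at 0.48, 0.50 and 0.51 between libraries with the same replicate number and at -0.41 to 0.02 between different numbers, so replicate numbers were taken as pairs, and the fit with a replicate block was run. Shared sequence was read from 100-base windows of GENCODE vM39 transcripts. Of the 81 members, 79 matched that annotation by identifier, all at overlapping positions. The alternatives were the block, limma voom on recovered reads, median of ratios scaling, a pseudocount of 0.1, no filter, and each library left out.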

Additional observations from a re-analysis of the deposited data

How the results depend on the processing

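The main counts were 3 upregulated and 6 downregulated members, 3 and 6 other translation genes, and a member median 0.40 above all genes. The replicate block gave 3 and 7, and 3 and 7, and changed no call on the 10 named members past the threshold. Voom on recovered reads lowered the downregulated members to 3. Median of ratios gave 10 and 2 members and 6 and 3 other genes, and together with the replicate block 12 and 2 members and 9 upregulated other genes. With the 2 eIF3j genes summed there were 2 upregulated members, with or without the replicate block, and 9 after median of ratios. Without a filter on low values 0 and 2 members and 0 and 2 other genes were called, and the member median was 0.10 above all genes. At an unadjusted p under 0.05, limma gave 9 members higher and 8 lower, and 10 and 9 without the filter. For the counts at an unadjusted p, with voom or without the filter, no share of all genes is given here. The same holds for the summed eIF3j genes and for median of ratios with the block. Such counts therefore cannot be set against those of all genes. With 1 library left out, upregulated members ran from 0 to 3, downregulated from 0 to 8, upregulated other genes from 0 to 3 and downregulated from 0 to 9. Over all 12227 tested genes, calls without non-acclimated replicate 1 or 2 or cold-acclimated replicate 1 or 2 numbered 59 to 78 upregulated and 345 to 600 downregulated. Without cold-acclimated replicate 3, the fit with 3 upregulated and 8 downregulated members, they numbered 459 and 2725. Without non-acclimated replicate 3 they numbered 395 and 1820. The cause of these differences was not tested. Relative to all genes, Eef2 lay at -0.01 without the filter, Eif4a2 at 0.01 with voom, with median of ratios (with or without the block) and with a pseudocount of 0.1, and between -0.15 and 0.10 with a library left out, and Eif4g3 at -0.20 without the filter and between -0.07 and 0.23 with a library left out. The log2 ratio of Eif3j1 to Eif3j2 ran from -0.17 to 0.25 with a library left out. For each of these the main value had the sign opposite to some alternative. Genes on under 100 reads in a library, such as Eif4ebp3, Eef1akmt1, Eef1akmt3 and Eef1akmt4, are the least precise.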
